A study of Rattus norvegicus with 36 samples.

Results

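Fc gamma receptors, the TREM receptors, the adaptor chains Fcer1g and Tyrobp, and the kinase Syk form one signalling route of myeloid cells, and their expression was followed in rat lung after exposure to crystalline silica. The 9 genes were chosen by name (Fcgr1a, Fcgr2a, Fcgr2b, Fcgr3a, Fcer1g, Tyrobp, Trem2, Trem1 and Syk), as the non-control probes of the array that carry these names. They made up 9 of 25597 gene names and 11 of 45598 probes, and all 9 were among the 23940 genes that passed the filter on low signal. Female Sprague Dawley rats, 13 weeks old at exposure, received 10 mg per rat of DQ-12 (a quartz dust used as a reference for harmful silica) suspended in saline, or saline alone (vehicle), in the trachea. Lungs were taken 1, 30 or 180 days later (D1, D30 and D180), with 6 vehicle and 6 DQ-12 rats at each time point, and RNA of the accessory lobe of each rat was hybridized to 1 single-color Agilent array, 36 arrays in all. The rats of each time point were different animals, and a single dose was used.

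Fc gamma receptors bind the constant part of IgG on opsonized particles and immune complexes. Most of them activate the cell through Fcer1g, a small membrane adaptor whose cytoplasmic tail holds an immunoreceptor tyrosine-based activation motif (ITAM). Src family kinases phosphorylate the ITAM, Syk docks on it, and phagocytosis, oxidant release and cytokine production follow. Fcgr2b is the exception: its tail holds an inhibitory motif that recruits phosphatases and dampens the other receptors. Trem2 and Trem1 do not bind IgG and signal through Tyrobp (also called DAP12), another ITAM adaptor. Trem2 senses lipids and cell debris on tissue macrophages, and Trem1 amplifies inflammation in neutrophils and monocytes.

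Rat names in this family differ from those of other species. In the RefSeq table of GRCr8, the probe named Fcgr2a matched a gene whose older names include Fcgr3, and the probe named Fcgr3a matched a gene formerly called Fcgr4. Fcgr2b (chr13:85725897-85740517), Fcgr3a (chr13:85782636-85792656) and Fcgr2a (chr13:85813516-85830269) lie next to each other, and Fcer1g lies on the same chromosome (chr13:86181908-86186766). Trem2 (chr9:20145215-20151797) and Trem1 (chr9:20259227-20276879) share a second cluster. Fcgr1a (chr2:186539941-186548941), Tyrobp (chr1:94800372-94804307) and Syk (chr17:12756493-12830927) lie apart. These are the RefSeq positions of the whole genes, introns included.

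The 250 bases upstream of the transcript start listed by RefSeq are shown for Trem2, differentially expressed at D30 and D180, and for Fcgr3a, which passed no test. They are RefSeq GRCr8 sequences, written 5′ to 3′ in the direction of transcription. Capitals mark the core letters GAGGAA of the motif of PU.1, the transcription factor that governs the myeloid lineage, or their reverse complement TTCCTC.
Trem2, chr9:20151780-20152029, minus strand: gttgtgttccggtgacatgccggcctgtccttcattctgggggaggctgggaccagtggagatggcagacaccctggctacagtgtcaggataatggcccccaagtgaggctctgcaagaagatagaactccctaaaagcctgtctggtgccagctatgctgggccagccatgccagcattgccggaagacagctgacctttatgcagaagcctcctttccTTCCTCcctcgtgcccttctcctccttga
Fcgr3a, chr13:85782386-85782635, plus strand: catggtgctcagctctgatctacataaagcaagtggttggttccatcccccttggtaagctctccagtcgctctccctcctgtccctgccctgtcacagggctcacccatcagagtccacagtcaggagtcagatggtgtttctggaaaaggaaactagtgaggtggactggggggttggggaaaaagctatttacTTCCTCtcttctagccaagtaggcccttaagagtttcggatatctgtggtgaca
The core was searched on both strands. It began 29 bases upstream of the Trem2 start and 54 bases upstream of the Fcgr3a start. The windows of Fcgr2a, Trem1 and Syk lie inside the spans of their genes, upstream of a listed transcript start and not of the outermost one. The Trem2 window overlaps the span of its gene by a short stretch, from 20151780 to 20151797, so its start too is not the outermost one. Of the 5 member genes with a promoter in the table (Fcgr2a, Fcgr3a, Trem2, Trem1 and Syk), 4 held the core in at least 1 window. These genes had 6 windows in all, and another window of Fcgr2a held 0 copies. The core was present in 23.3% of 33469 rat promoters of the same length, a share counted per promoter and not per gene. The longer form GAGGAAGT, which contains the core, was present in 2.04% of these promoters and in Fcgr3a alone among the 5. A match of letters describes the window and is not a binding site. No promoter is shown for Fcgr1a, Fcgr2b, Fcer1g and Tyrobp.

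Values below are normalized log2 signals, on which a difference of 1 is a 2-fold change. Levels are compared between groups for the same probe, never between genes, since probes differ in brightness for reasons other than abundance. A gene is said to rise or fall when its adjusted p was under 0.05 (limma on all 36 arrays, Benjamini–Hochberg over 23940 genes), and is called a differentially expressed gene (DEG) when its fold change (FC) was also at least 2. All 9 genes were well above background on all 36 arrays. In whole-lung RNA, more cells of a type and more RNA per cell cannot be told apart.

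At D1, 1 of the 9 genes was a DEG, against 3.07% of all genes tested. At D30 there were 3 of 9 (1.05% of all genes), and at D180 again 3 of 9 (3.63%). Without the fold threshold, 4 of 9 rose at D1, 7 at D30 and 8 at D180, and none fell. Among all genes, 7.58%, 2.74% and 7.81% rose by that rule, and 8.62%, 1.24% and 9.01% fell. Over the 9 genes, log2 FC had a median of 0.17 at D1, 0.55 at D30 and 0.85 at D180, while that of all genes was -0.01, -0.02 and -0.03. All 6 DQ-12 arrays lay above all 6 vehicle arrays for 2 of the genes at D1, 4 at D30 and 5 at D180 (5.23%, 1.81% and 3.82% of all genes).

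**Figure D1:**
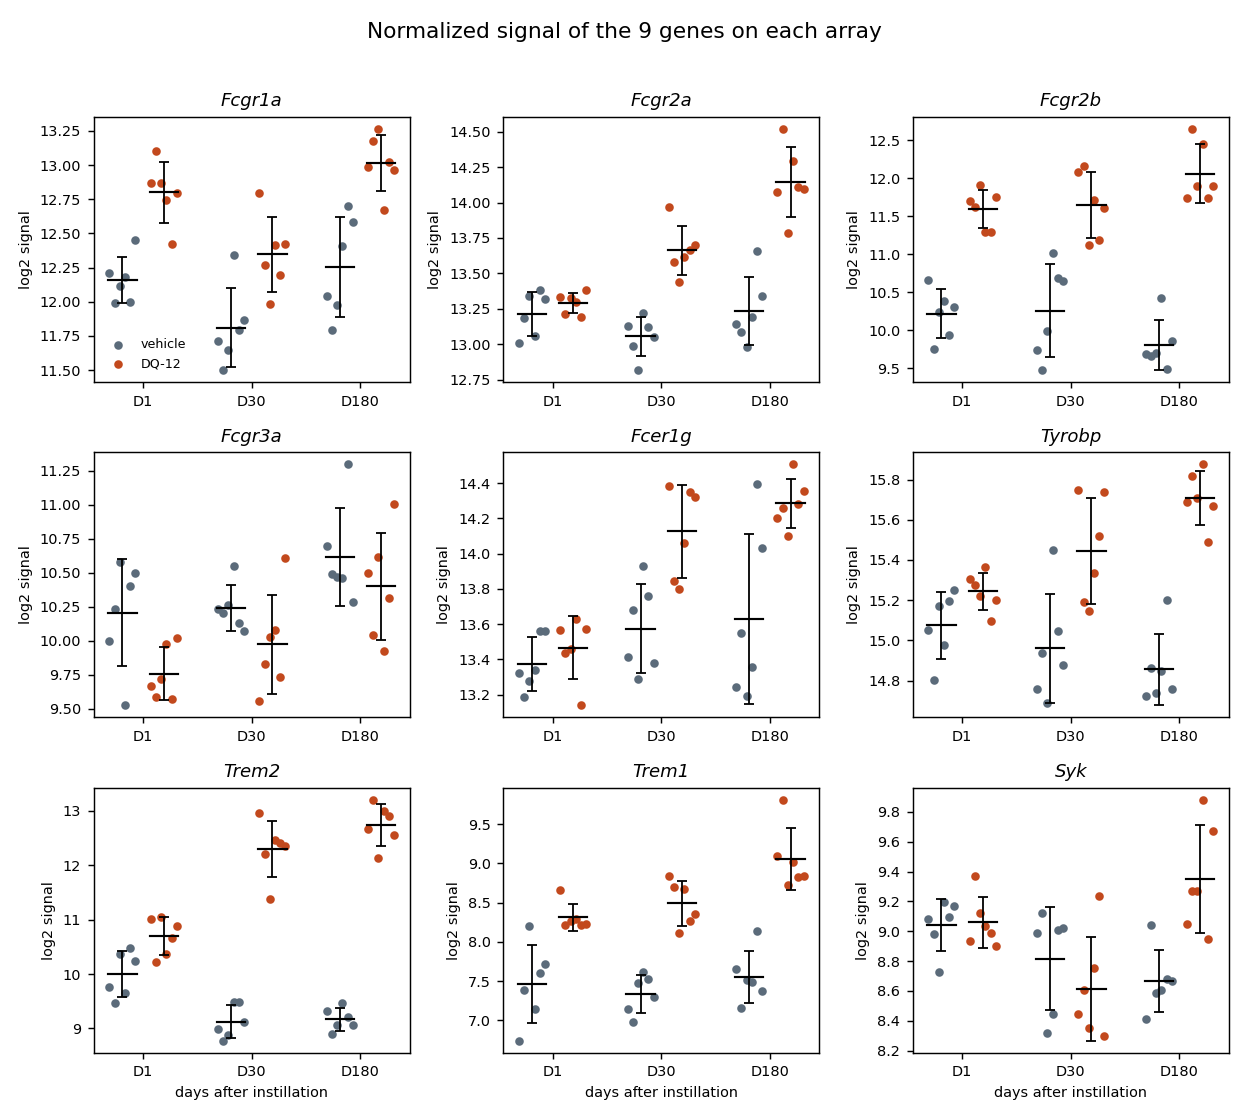
Normalized log2 signal (vertical axis, a separate scale for each gene) of the 9 genes on each of the 36 arrays at D1, D30 and D180, with vehicle rats in gray and DQ-12 rats in orange. Horizontal lines are means and bars are SD (n = 6). The groups of Fcgr2b are apart at all 3 time points and those of Trem2 at D30 and D180, whereas the groups of Fcgr3a overlap throughout.

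Fcgr2b, the inhibitory IgG receptor, was the only DEG of the set at D1 and a DEG at every time point. At D1, vehicle signals spanned 9.76–10.66 (median 10.27) and DQ-12 signals 11.29–11.91 (median 11.66). At D30 the ranges were 9.47–11.01 (median 10.32) and 11.12–12.16 (median 11.66), and at D180 9.49–10.43 (median 9.69) and 11.74–12.65 (median 11.90). The lowest DQ-12 rat stood above the highest vehicle rat each time. The log2 FC was 1.38 (SE 0.23, adjusted p = 6.27e-05) at D1, 1.39 (SE 0.23, adjusted p = 2.10e-04) at D30 and 2.26 (SE 0.23, adjusted p = 1.00e-08) at D180, or 2.60-, 2.62- and 4.79-fold. The increase at D180 over that at D30 was 0.87 (95% interval 0.21 to 1.53, adjusted p = 0.271) and did not pass the test. The study picked Fcgr2b for its gene signature on these rats among others, so these calls are not independent evidence.

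The calls of Fcgr2b depended on the scan date at D1. All 6 DQ-12 arrays of D1 were scanned on 1 date, together with 1 of the 6 vehicle arrays. Within that date the DQ-12 arrays exceeded the vehicle array by 1.36, and with the scan date as a block the log2 FC was 1.36 with an adjusted p of 0.157. At D30, where both dates held both groups, the differences within dates were 1.05 and 1.23. At D180 the 2 dates that held both groups gave 2.16 and 2.09. With scan date or slide as a random block, Fcgr2b was called at all 3 time points. With the slide as a block, for which a single slide of D180 held both groups with 1 array each, the log2 FC at D180 was 1.31 (adjusted p = 0.353).

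The activating receptors had smaller log2 FC than Fcgr2b. For Fcgr1a, the high-affinity IgG receptor, D1 signals were 11.99–12.45 (median 12.15) in vehicle rats and 12.43–13.10 (median 12.83) in DQ-12 rats. Its log2 FC was 0.64 (SE 0.15, adjusted p = 3.23e-03) at D1, 0.54 (SE 0.15, adjusted p = 0.0380) at D30 and 0.76 (SE 0.15, adjusted p = 3.95e-04) at D180. At D1 and D180, 5 of 6 DQ-12 rats were above all vehicle rats, and at D30 3 of 6, so the groups overlapped each time. At D30 the adjusted p exceeded 0.05 after leaving out any 1 of 9 of the 12 arrays, and reached 0.136 without DQ-12 replicate 1. With the scan date as a block, the log2 FC was 0.69 at D1 (adjusted p = 0.223), 0.42 at D30 (adjusted p = 0.227) and over 1 at D180. With the slide as a block, the D180 value was 0.58 (adjusted p = 0.415).

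Fcgr2a, a low-affinity receptor that activates through Fcer1g, did not pass the test at D1 and rose at both later times. Its signals at D1 were 13.01–13.38 (median 13.25) in vehicle rats and 13.20–13.38 (median 13.31) in DQ-12 rats, a log2 FC of 0.08 (95% interval -0.15 to 0.30, adjusted p = 0.708). At D30 they were 12.82–13.22 (median 13.09) and 13.44–13.97 (median 13.64), and at D180 12.98–13.66 (median 13.17) and 13.78–14.52 (median 14.10). The groups were apart at both later times, with log2 FC of 0.61 (SE 0.11, adjusted p = 5.85e-04) and 0.91 (SE 0.11, adjusted p = 2.22e-07), both under 2-fold (with the 75th-percentile scaling the D180 change passed the fold threshold). The change at D180 exceeded that at D1 by 0.83 (SE 0.15, adjusted p = 0.00127). By adjusted p alone, 3 of the 9 genes differed between these time points (Fcgr2a, Tyrobp and Trem2), against 4.54% of all genes. Within single scan dates the difference was 0.59 and 0.64 at D30 and 1.02 on both dates of D180.

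The array annotation does not separate Fcgr2a from a neighboring gene. The probe named LOC498276, which RefSeq calls Fcgr2al1 (chr13:85835616-85846011), and the Fcgr2a probe each list the transcripts of both genes in the array annotation, although the probes share at most 19 of 60 bases without gaps. LOC498276 changed by -0.00 at D1 (adjusted p = 0.988), 0.57 at D30 (adjusted p = 4.20e-03) and 1.03 at D180 (adjusted p = 1.42e-07), in a fit of all probes. The 2 genes had an r of 0.934 over the 36 arrays, and which transcript each probe measured was not tested.

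Fcgr3a, the rat gene formerly named Fcgr4, passed no test and was the one member whose estimates were below 0 at all 3 time points. D1 signals were 9.52–10.58 (median 10.32) in vehicle rats and 9.57–10.02 (median 9.69) in DQ-12 rats. The log2 FC was -0.45 at D1 (95% interval -0.83 to -0.07, adjusted p = 0.0994), -0.27 at D30 (-0.65 to 0.11, adjusted p = 0.549) and -0.22 at D180 (-0.60 to 0.16, adjusted p = 0.510). These intervals exclude a 2-fold increase at each time point but leave room for a decrease. Without vehicle replicate 4 at D1, the value was -0.59 with an adjusted p of 0.0279. On the D1 scan date that held both groups, the 6 DQ-12 arrays differed from the 1 vehicle array by -0.82. Within single dates the difference was -0.42 and -0.39 at D30, and -0.16 and -0.18 at D180.

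Differences within an array do not change when an array is scaled by a constant, although quantile normalization can still move them. For 4 pairs of members, chosen after their values were seen, they are given as a description without a test. From vehicle to DQ-12, Fcgr2b minus Fcgr3a shifted by 1.83 (SE 0.28) at D1, 1.65 (SE 0.35) at D30 and 2.47 (SE 0.38) at D180, with the groups apart each time. Fcgr2b minus Fcgr1a shifted by 0.74, 0.85 and 1.5, again with all 6 DQ-12 arrays above the vehicle arrays. Fcgr2b minus Fcgr2a shifted by 1.31 at D1 and 1.35 at D180, with separate groups, and by 0.78 at D30, where 4 of 6 DQ-12 arrays lay above all vehicle arrays.

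**Figure D2:**
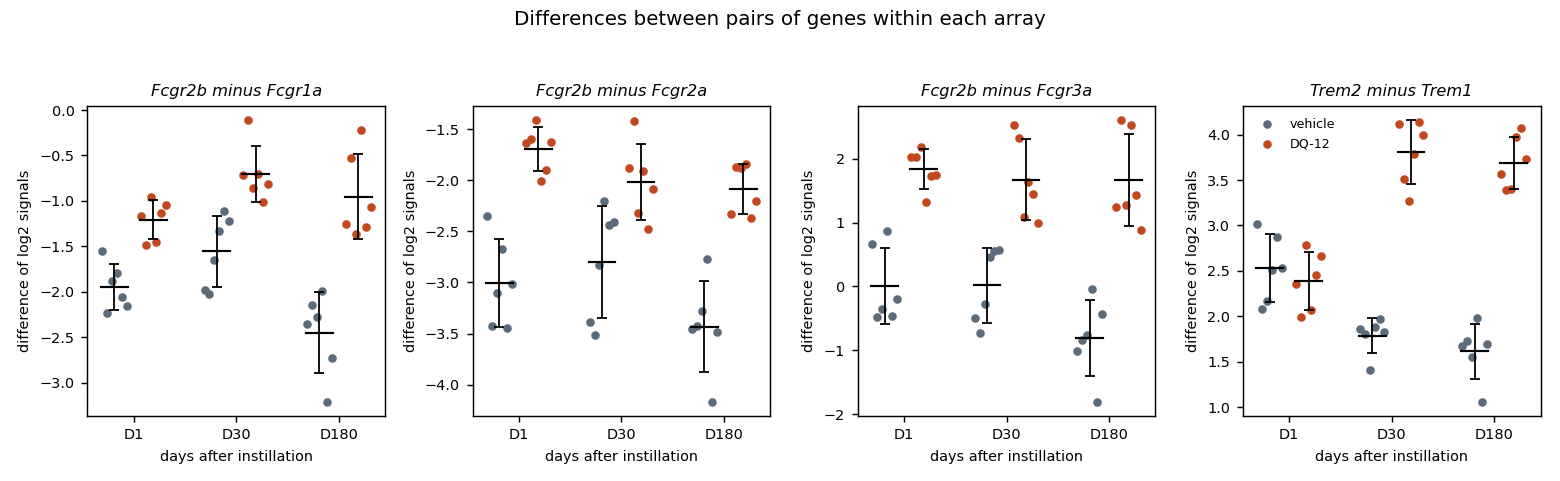
Difference of normalized log2 signals between 2 genes on the same array (vertical axis, a separate scale for each pair) at D1, D30 and D180, for vehicle (gray) and DQ-12 (orange) rats, with means and SD (n = 6). Fcgr2b gained on Fcgr3a by 1.83, 1.65 and 2.47, and Trem2 gained on Trem1 by 2.02 and 2.08 at D30 and D180, against a shift of -0.14 at D1.

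Both ITAM adaptors rose at D30 and D180 and did not pass the test at D1. Fcer1g, the common gamma chain, changed by 0.09 at D1 (95% interval -0.23 to 0.41, adjusted p = 0.754), 0.55 at D30 (SE 0.16, adjusted p = 0.0378) and 0.66 at D180 (SE 0.16, adjusted p = 2.68e-03). Signals at D180 were 13.19–14.39 (median 13.45) in vehicle rats and 14.10–14.51 (median 14.27) in DQ-12 rats, so that the highest vehicle rat stood within the DQ-12 range. The D30 rise was lost on leaving out any 1 of 8 of the 12 arrays (adjusted p up to 0.116, without DQ-12 replicate 1). When each time point was fitted alone, the adjusted p was 0.0897 at D30 and 0.0555 at D180. The change of Fcer1g did not pass the test of a difference from D1, either at D30 (0.46, adjusted p = 0.300) or at D180 (0.56, adjusted p = 0.145).

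Tyrobp, the partner of the TREM receptors, had signals of 14.80–15.25 (median 15.11) in vehicle rats and 15.10–15.37 (median 15.25) in DQ-12 rats at D1. At D180 they were 14.72–15.20 (median 14.80) and 15.49–15.88 (median 15.70), with no overlap. The log2 FC at D1, D30 and D180 was 0.17 (adjusted p = 0.364), 0.49 (SE 0.12, adjusted p = 0.0119) and 0.85 (SE 0.12, adjusted p = 2.03e-06), and the change at D180 exceeded that at D1 by 0.68 (SE 0.17, adjusted p = 0.0132). At D30 the adjusted p was 0.0514 without DQ-12 replicate 1 and 0.158 when that time point was fitted alone. With 75th-percentile scaling the D1 value was 0.36 (adjusted p = 0.0123). A second, dimmer Tyrobp probe, which the array annotation ties to an expressed sequence tag, gave -0.04, 0.23 and 0.49, and none of these passed the test.

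Trem2, the lipid-sensing receptor of tissue macrophages, had the largest change of the 9 genes at D30 and D180. At D1, vehicle signals were 9.47–10.49 (median 10.00) and DQ-12 signals 10.21–11.05 (median 10.78), and 4 of 6 DQ-12 rats were above all vehicle rats. At D30 they were 8.78–9.49 (median 9.06) and 11.39–12.96 (median 12.38), and at D180 8.89–9.46 (median 9.13) and 12.13–13.21 (median 12.78). Every DQ-12 rat stood well above every vehicle rat at D30 and D180. The log2 FC was 0.71 (SE 0.21, adjusted p = 0.0208) at D1, 3.17 (SE 0.21, adjusted p = 4.97e-12) at D30 and 3.58 (SE 0.21, adjusted p = 1.56e-13) at D180, or 1.63-, 9.0- and 12-fold.

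The time course of Trem2 was tested directly. Its change was larger than at D1 by 2.46 at D30 (SE 0.30, adjusted p = 1.20e-05) and by 2.87 at D180 (SE 0.30, adjusted p = 7.58e-07), which 0.944% and 1.55% of all genes matched by the same rule (a difference of at least 1 in either direction and adjusted p under 0.05). Between D30 and D180 the difference was 0.41 (95% interval -0.21 to 1.02, adjusted p = 0.642). Trem2 was the only member called in these comparisons, and no member was called between D180 and D30 (0.134% of all genes). Vehicle rats at D30 and D180 also had lower Trem2 signals than those at D1, with means of 9.13, 9.17 and 9.99. Within single scan dates DQ-12 exceeded vehicle by 3.31 and 3.09 at D30 and by 3.38 and 4.02 at D180, but by 0.34 at D1, where the block left an adjusted p of 0.854. The D1 rise was also lost without vehicle replicate 2 (adjusted p = 0.0648), vehicle replicate 4 (0.0530) or DQ-12 replicate 3 (0.0517).

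Trem1, the amplifier on neutrophils and monocytes, was a DEG at D30 and D180. Its probe, the 60-base oligonucleotide behind the Trem1 values, had the sequence
Trem1 probe: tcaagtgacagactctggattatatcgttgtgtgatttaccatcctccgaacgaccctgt
with no base capitalized. Signals were 6.74–8.20 (median 7.50) in vehicle and 8.21–8.66 (median 8.24) in DQ-12 rats at D1, 6.98–7.61 (median 7.39) and 8.11–8.84 (median 8.52) at D30, and 7.16–8.14 (median 7.50) and 8.73–9.81 (median 8.93) at D180. The groups did not overlap at any time, although the highest vehicle rat of D1 almost reached the lowest DQ-12 rat. The log2 FC was 0.85 (SE 0.19, adjusted p = 2.36e-03), 1.15 (SE 0.19, adjusted p = 2.56e-04) and 1.5 (SE 0.19, adjusted p = 7.05e-07), or 1.80-, 2.22- and 2.83-fold. With normexp background correction the D30 value was 0.90, and without background correction 0.998, both just short of the fold threshold.

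The D1 value of Trem1 moved most with the scan date. The vehicle array at 8.20 was the one scanned with the DQ-12 arrays, and within that date the difference was 0.11. With the scan date as a block, the log2 FC was 0.11 (adjusted p = 0.954), and with the date as a random block 0.63 (adjusted p = 0.104). At D1 the scan date and the exposure grouped the arrays almost alike and can hardly be told apart. At D30 the differences within dates were 1.03 and 0.99, and at D180 1.66 and 1.67.

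**Figure D3:**
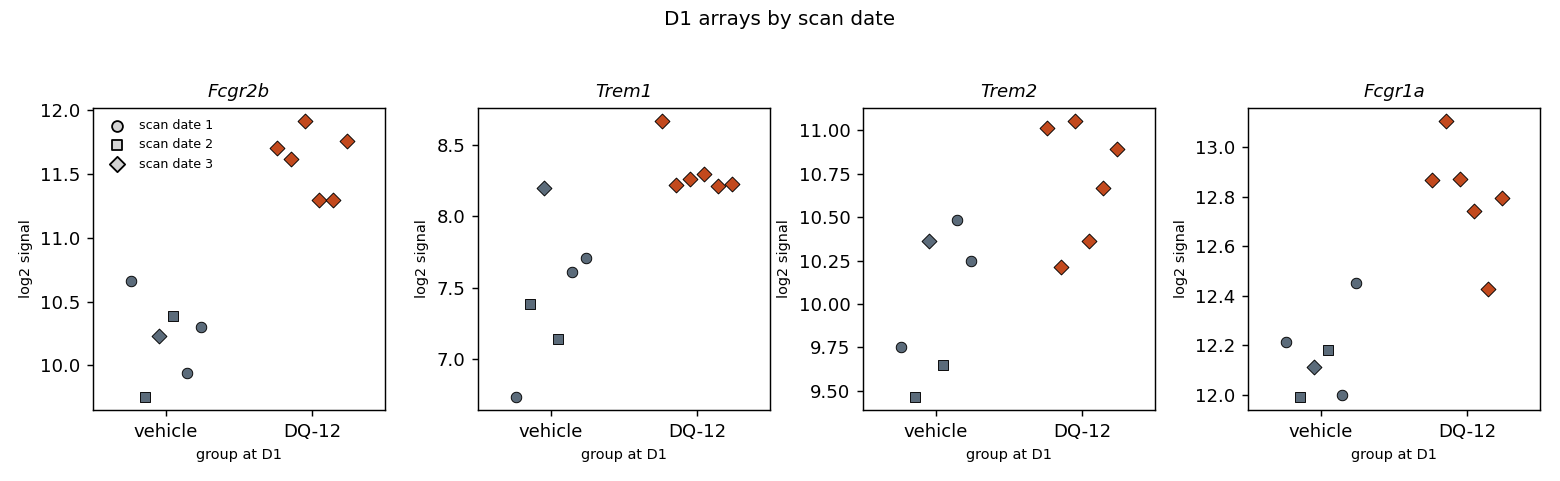
Normalized log2 signal (vertical axis, a separate scale for each gene) of Fcgr2b, Trem1, Trem2 and Fcgr1a on the 12 arrays of D1, with vehicle rats in gray and DQ-12 rats in orange and a different symbol for each of 3 scan dates. The 1 vehicle array scanned with the DQ-12 arrays (diamond) lies with the other vehicle arrays for Fcgr2b and Fcgr1a, but just under the DQ-12 arrays for Trem1.

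Trem2 minus Trem1 on the same array shifted by -0.14 at D1, with overlapping groups (SE 0.20), and by 2.02 (SE 0.16) at D30 and 2.08 (SE 0.17) at D180, with the groups apart. This pair too was chosen after its values were seen. Trem3, which lies between them on the chromosome and also pairs with Tyrobp, rose by 0.80 at D30 (adjusted p = 2.29e-03) and 1.37 at D180 (adjusted p = 1.66e-07), after 0.37 at D1 (adjusted p = 0.124). Treml1, a platelet receptor of this family, fell by 0.50 at D1 (adjusted p = 0.0218), and its values of -0.46 and -0.39 at D30 and D180 did not pass the test.

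Syk, the kinase that the ITAM adaptors share, did not pass the test at D1 or D30 and rose at D180. Signals were 8.72–9.20 (median 9.09) and 8.90–9.37 (median 9.01) at D1, 8.32–9.12 (median 9.0) and 8.30–9.24 (median 8.53) at D30, and 8.41–9.04 (median 8.64) and 8.95–9.88 (median 9.27) at D180, for vehicle and DQ-12 rats. At D180 5 of 6 DQ-12 rats were above all vehicle rats. The log2 FC was 0.02 (95% interval -0.31 to 0.35, adjusted p = 0.961), -0.20 (-0.53 to 0.13, adjusted p = 0.634) and 0.68 (SE 0.16, adjusted p = 2.59e-03). The change at D180 differed from that at D30 by 0.88 (SE 0.23, adjusted p = 0.0815), which did not pass the test. Without DQ-12 replicate 5 of D30, the difference was at least 1 with an adjusted p under 0.05.

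The 2 probes of Syk did not tell the same story at D30. The second and dimmer one had the sequence
Syk second probe: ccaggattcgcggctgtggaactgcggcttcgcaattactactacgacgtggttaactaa
and gave 0.45 at D1 (adjusted p = 0.249), 0.77 at D30 (adjusted p = 0.0955) and 0.83 at D180 (adjusted p = 0.0204). It was well above background on all arrays of D1 and D30, and on 3 vehicle and 5 DQ-12 arrays of D180. With the scan date as a block, the first probe gave 0.14 at D30 (adjusted p = 0.771), and with the slide as a block 0.44 at D180 (adjusted p = 0.420). On the 2 scan dates of D180 that held both groups it differed by 0.66 and -0.10, the latter from 1 array per group.

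**Figure D4:**
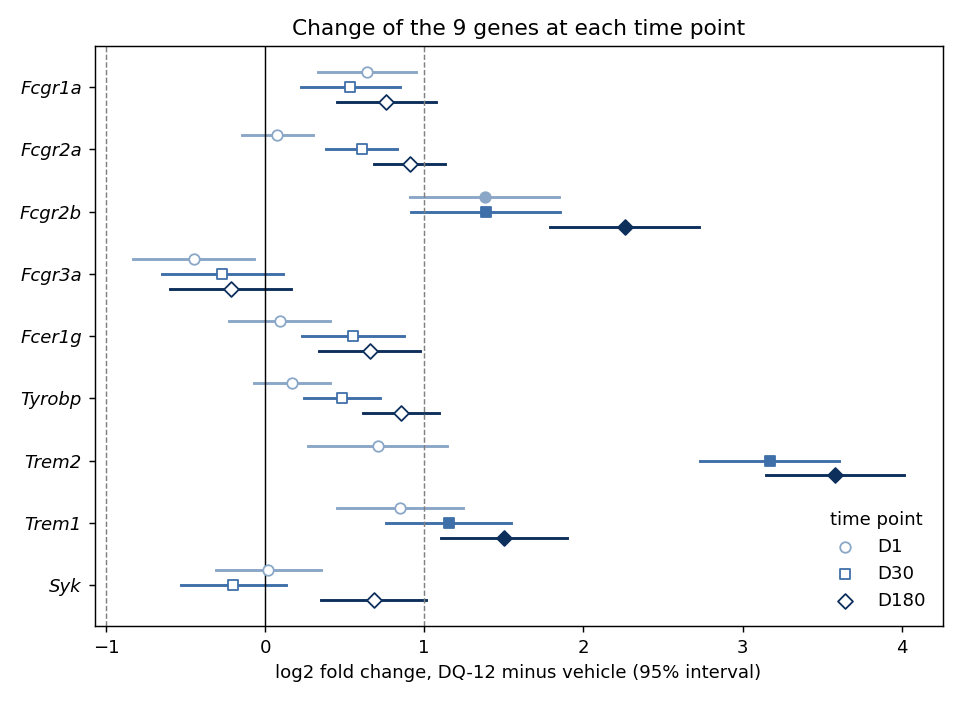
Log2 FC of DQ-12 against vehicle (horizontal axis) for the 9 genes at D1 (circles), D30 (squares) and D180 (diamonds), with 95% intervals from limma. Filled symbols are DEGs, and dashed lines mark a 2-fold change: only Fcgr2b, Trem2 and Trem1 have filled symbols.

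The genes whose signal most resembled each member over the 36 arrays are given by Pearson's r, with the r of deviations from group means in parentheses. The arrays share 6 group means and a normalization, so these are descriptions. Trem2 was closest to Ifi30 (0.950, within groups 0.772), Hk3 (0.948, 0.591) and Rab7b (0.945, 0.593), and Fcgr2b to Slamf9 (0.939, 0.706), LOC108348486 (0.931, 0.715) and Spp1 (0.923, 0.543). Fcgr2a was closest to Scimp (0.940, 0.826) and Lgals3 (0.935, 0.690) ahead of LOC498276. Trem1 had the highest value, 0.974 with LOC680920 (within groups 0.936), followed by Slc26a4 (0.930, 0.758) and Bcat1 (0.930, 0.645). Tyrobp resembled Lsp1 (0.912, 0.756) and Snx20 (0.905, 0.714), and Fcgr1a resembled Clec4a3 (0.903, 0.649), Ptafr (0.883, 0.790) and C3ar1 (0.882, 0.547). For Fcer1g they were Ccl9 (0.867, 0.588), Lipa (0.865, 0.721) and Ctsb (0.857, 0.685), for Syk Psap (0.898, 0.831), Anpep (0.870, 0.833) and Rhbdf2 (0.854, 0.786), and for Fcgr3a LOC100909964 (0.781, 0.694), Pof1b (0.763, 0.596) and Taf9b (0.742, 0.559).

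Among the members, Trem2 and Trem1 had an r of 0.890 (within groups 0.626), Trem2 and Fcgr2a 0.882 (0.690) and Tyrobp and Fcer1g 0.787 (0.740). Fcgr2b and Fcer1g had 0.533, but 0.092 within groups. Syk and Trem1 had 0.213, and -0.295 within groups. Fcgr3a had values from -0.399 with Fcgr2b to 0.193 with Fcer1g. Within groups its values ran from -0.300 with Syk to 0.295 with Tyrobp, and those of Syk from -0.300 to 0.216 with Fcer1g.

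Other genes of the pathway were counted from 5 lists that hold 71 genes tested. DEGs numbered 3 at D1, 4 at D30 and 15 at D180, all higher, or 4.23%, 5.63% and 21.1% of the 71 against 3.07%, 1.05% and 3.63% of all genes. With the scan date as a block there was 1 at D1, and with normexp background correction 1 at D1 and 9 at D180. Without the fold threshold, 9, 11 and 31 rose and 5, 0 and 2 fell, where 7.58%, 2.74% and 7.81% of all genes rose and 8.62%, 1.24% and 9.01% fell, and the median log2 FC was 0.11, 0.15 and 0.44. Of 9 other Fc receptors, the one DEG was Fcrlb, an intracellular Fc receptor-like protein of the B lineage, at every time point, with log2 FC of 1.55 (SE 0.33), 2.32 (SE 0.33) and 2.33 (SE 0.33) and separate groups each time. Fcamr, a receptor for IgA and IgM, rose by 0.97 at D30 and 0.81 at D180, and Fcer1a, the IgE-binding chain that pairs with Fcer1g, by 0.76 at D180. Fcgrt, the neonatal Fc receptor that recycles IgG, did not pass the test at any time point. The D1 values of single pathway and marker genes, here and below, come from the fit without a block. Scan date and exposure grouped the D1 arrays almost alike.

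Among 15 other ITAM adaptors, related adaptors and the receptors that use them, Clec5a, which signals through Tyrobp, was a DEG at D1 (1.32, SE 0.24), D30 (1.4, SE 0.24) and D180 (1.66, SE 0.24). Siglec1, the sialic acid receptor of macrophages, rose by 0.79 at D1, 2.04 at D30 and 1.96 at D180, and Cd300ld by 0.60, 0.79 and 1.41. In contrast, Clec7a, the beta-glucan receptor with an ITAM-like tail, fell at D1 by 0.65 (SE 0.15, adjusted p = 2.95e-03), with all 6 DQ-12 rats below the vehicle rats. Hcst, an adaptor that recruits PI3-kinase and holds no ITAM, rose by 0.48 at D180, and Cd247, the zeta chain of T and NK cells, fell by 0.37 at D1.

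Of 8 Src and Tec family kinases, which act directly above and beside Syk, none rose at D1. Lyn rose at D30 and D180 by 0.28 each. At D180 Btk was a DEG at the threshold (1.00, SE 0.18, adjusted p = 1.42e-04), Fgr rose by 0.74, and Src fell by 0.37. Among 19 adaptors and effectors, 10 rose at D180 and none fell. The DEGs were Ncf1, a subunit of the phagocyte oxidase (1.29, SE 0.16), Card9, which links Syk to NF-kappaB (1.1, SE 0.19), and Was, a regulator of actin (1.23, SE 0.40), which was well above background on only 2 vehicle and 5 DQ-12 arrays.

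Inhibitory receptors and phosphatases numbered 20. Lilrb4, which carries inhibitory motifs like Fcgr2b, was a DEG at D1 (2.03, SE 0.22), D30 (1.51, SE 0.22) and D180 (2.46, SE 0.22). At D180 Lilrb3 (3.06, SE 0.68), Cd300a (1.67, SE 0.18), Dok3 (1.23, SE 0.14) and Clec12a (1.08, SE 0.15) were DEGs as well, and Pirb was called but was well above background on no vehicle array and 1 DQ-12 array, so no fold is given. Among the phosphatases that these receptors recruit, Ptpn6 rose by 0.40 and Inpp5d by 0.44 at D180, and Ptpn11 fell by 0.29. Sirpa, the CD47 receptor, fell by 0.43 at D1 with separate groups.

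**Figure D5:**
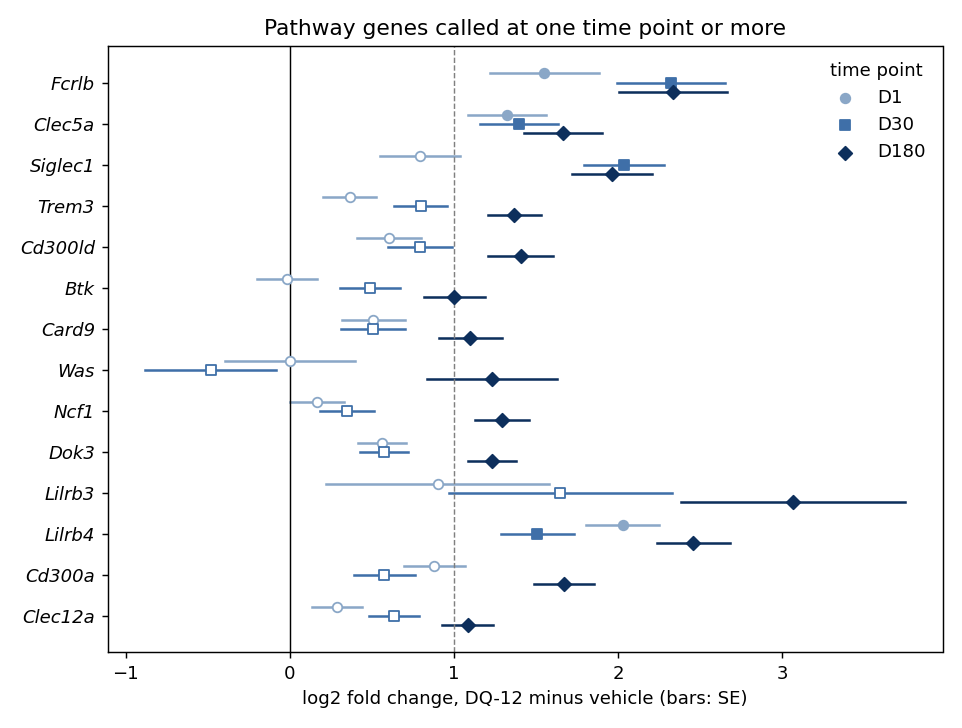
Log2 FC of DQ-12 against vehicle (horizontal axis, bars are SE) at D1, D30 and D180 for 14 genes of the pathway lists that were DEGs at one time point or more, without Pirb. Filled symbols are DEGs in the fit without a block, and the dashed line marks a 2-fold increase. Fcrlb, Clec5a and Lilrb4 are filled at all 3 time points, and most others at D180 alone.

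Some markers of cells that carry these receptors were DEGs, and their part in the members' changes was not tested. The counts of DEGs below stand against 3.07% of all genes at D1, 1.05% at D30 and 3.63% at D180. Of 19 macrophage and monocyte markers, 0 were DEGs at D1, 3 at D30 and 6 at D180. Marco and Msr1, which the study chose on these rats, were among them, along with Cd68, and Itgam, Cd14 and Aif1 at D180. By adjusted p alone, 7.58%, 2.74% and 7.81% of all genes rose and 8.62%, 1.24% and 9.01% fell. Of the 19 markers, 6, 8 and 10 rose by that rule and 1, 0 and 2 fell. The log2 of their summed signal, which the brightest genes dominate, was 18.31 to 18.34 in vehicle and 18.16 to 18.36 in DQ-12 rats at D1, 18.07 to 18.31 and 18.18 to 18.36 at D30, and 18.30 to 18.33 and 18.40 to 18.63 at D180. Cd68 changed by 1.16 at D30 and 1.55 at D180, less than Trem2 and more than Tyrobp. Marco was well above background on no vehicle array of D30. Cd163 and Mertk, scavenger and efferocytosis receptors of resident macrophages, fell by 0.89 and 0.41 at D180, and Spi1, which encodes PU.1, rose by 0.93.

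Of 12 neutrophil markers, 2 were DEGs at D1, 2 at D30 and 5 at D180, led by Lcn2 (4.61 at D1), which epithelium also makes, and by S100a9 (2.57 at D180). Their summed signal was 13.38 to 14.51 in vehicle and 14.04 to 16.46 in DQ-12 rats at D1, 13.18 to 14.42 and 14.65 to 16.50 at D30, and 13.47 to 14.38 and 15.68 to 16.97 at D180. The brightest genes dominate this sum as well. By adjusted p alone, too, only 2, 2 and 5 of the 12 rose, and none fell. The median log2 FC over the 12 was 0.39, 0.26 and 0.83. Of 9 B and plasma cell markers, 0, 1 and 3 were DEGs, with summed signals of 12.53 to 13.04 and 12.28 to 13.10 at D1, 12.82 to 13.57 and 13.84 to 14.45 at D30, and 13.19 to 14.27 and 14.36 to 16.05 at D180. The other markers of this list did not pass the test, among them the B cell receptor chains Cd79a and Cd79b at every time point. The median log2 FC over the 9 was -0.29, -0.02 and 0.19. Dendritic cell markers had 0, 1 and 2 DEGs of 6, and mast cell markers 0, 0 and 2 of 7, all higher. By adjusted p alone, 1 and 0 rose at D1, 3 and 0 at D30, and 3 and 4 at D180. By that rule 1 marker of each list fell at D1 and 1 at D180. Median sums (vehicle, DQ-12) of the dendritic list were 11.01 and 11.16 at D1, 10.99 and 11.40 at D30, and 11.14 and 11.87 at D180. Those of the mast cell list were 13.37 and 12.94, 13.33 and 13.22, and 13.36 and 13.21. Among 7 T cell, 8 NK cell, 4 platelet and 6 lung epithelium markers there were no DEGs (Klrd1 of the NK cells fell by 0.73 at D1), and the epithelial sum stayed between 19.57 and 19.89 in all groups.

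Across the series, 51.3 to 75.5% of probes per array were well above background, and arrays of the same group had a median pairwise r between 0.973 and 0.981. No spot was saturated, and no member value was missing.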

How the data were processed

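Per the labels and the file headers, the authors scanned single-color SurePrint G3 arrays and extracted spots with Agilent Feature Extraction (12.0.1.1). The deposited processed signal, an intensity corrected for background, was used here. The deposited log2 table held log2 processed signals minus each array's 75th percentile, centered on the median of each probe, and served as an alternative. The study normalized by quantiles, corrected for a batch that the sources used here do not name, and used limma.

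Outlier spots (232 to 596 of 58717 per array) were dropped, spots averaged per probe, and probes kept when above the 95th percentile of 308 negative controls on at least 6 arrays. Kept probes were quantile normalized on the log2 scale. The probe with the highest mean signal stood for a gene. Means of 6 groups were fitted to 36 arrays with limma 3.58.1 (R 4.3.3), with Benjamini–Hochberg adjustment per comparison over 23940 genes. DEGs had a fold of at least 2 and adjusted p under 0.05. Differences between time points came from the same fit. Scripts were tested on simulated data. Arrays fell on 19 slides and 11 scan dates, used as blocks in alternatives.

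The members and lists were chosen with earlier results of these data known. In each list, at most 5 DEGs per time point were named by size of change, Clec12a and genes below the fold threshold being named after their values were seen. The number of arrays limits precision. Some genes that met these rules are not reported here.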

Additional observations from a re-analysis of the deposited data

Results flagged for a closer look

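A sample stood apart from its group in 10 of 138 groups of 6 arrays examined over 23 genes, where chance gives about 1 in 20. Gaps are those between the extreme sample and the nearest one, as a share of the group's range. Of 54 groups of the members, 3 were among them. Vehicle replicate 5 of D180 was high for Tyrobp (15.20 against 14.86 for the next, a gap of 0.709). For Trem1, DQ-12 replicate 1 of D1 (8.66 against 8.30, a gap of 0.809) and DQ-12 replicate 2 of D180 (9.81 against 9.10, a gap of 0.657) were high.

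Among pathway genes, DQ-12 replicate 2 of D1 was low for Btk (a gap of 0.786) and vehicle replicate 3 of D30 was low for Cd300a (0.705). Vehicle rats of D180 stood out as high for Cd300ld (0.702, replicate 4), Clec5a (0.772, replicate 5) and Pirb (0.638, replicate 3). Vehicle replicate 4 was low for Was at D30 (0.752) and, in another rat, at D180 (0.708).

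By the interaction term in limma, the response differed between time points by at least 1 (log2) with an adjusted p under 0.05 for 5 of these genes. The pathway genes among them had been picked as DEGs on the same arrays, so this count is only a description. Of all genes, 0.944% met this rule between D30 and D1, 0.134% between D180 and D30, and 1.55% between D180 and D1. Trem2 changed more at D30 than at D1 by 2.46 and more at D180 than at D1 by 2.87. Compared with D1, the change at D180 was larger by 1.02 for Btk (adjusted p = 0.0187), 1.13 for Ncf1 (adjusted p = 3.42e-03), 1.00 for Trem3 (adjusted p = 8.28e-03) and 1.17 for Siglec1 (adjusted p = 0.0441). The change of Siglec1 at D30 was larger than at D1 by 1.24 (adjusted p = 0.0486).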

How the results depend on the processing

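Leaving out any 1 array kept 1, 3 and 3 members called at D1, D30 and D180, and 3, 4 to 5 and 13 to 15 pathway genes. No member was called between D180 and D30 except Syk without DQ-12 D30 replicate 5 (0 to 1). With scan date or slide as a fixed block, 0 members were called at D1. At D180 the scan date gave 5, with Fcgr1a and Fcgr2a added, and the slide 2. Between D180 and D1 the scan date gave 2 (Fcgr2a and Trem2). By adjusted p alone, 4, 7 and 8 members passed, and at a fold of 1.5, 4 at D1 and 8 at D180, and between D180 and D1 3 under both rules. For pathway genes, 1 was called at D1 with normexp, with median signals, and with either fixed block, and at D180 9 with normexp and 5 with the slide. By adjusted p alone they numbered 14, 11 and 33, and at a fold of 1.5, 7, 8 and 24. The cause of these shifts was not tested.

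Signs turned only for values that missed the test. Fcgr2a at D1 was -0.0497 (scan date) and -0.0741 (slide), and Fcgr3a at D180 was 0.0412 (slide). Syk at D1 was -0.0160 with median signals and -0.0444 to 0.0505 without single arrays. Syk at D30 was 0.28 over both probes, 0.14 (scan date), 0.12 (slide) and 0.00340 (scan date as a random block). Of the other settings for members' log2 FC, 345 kept the sign and the side of 0.05 on which the adjusted p lay. In 23 a change lost its adjusted p under 0.05. The fold threshold was not part of these counts. All genes called fell from 736, 252 and 868 to 214, 102 and 326 with normexp, to 270, 128 and 429 with median signals, and to 195 at D1 and 473 at D180 with the slide, and to 174 at D1 with the scan date (405 as a random block, and 483 for the slide). They rose to 1843, 613 and 2307 at a fold of 1.5.

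Replicate numbers were not treated as pairs in the main fit. Of 18 same-numbered pairs, 6 had deviations correlated above 0.1 (range -0.13 to 0.22). The medians over other-numbered pairs ran from -0.19 to 0.07. Whether the numbers pair the samples was not tested. With the replicate block, 1, 3 and 3 members were called, the same genes, and 742, 258 and 885 genes in all.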
